A study of Mus musculus with 4 samples.

Results

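Glycosyltransferases that build the sugar chains of surface glycoproteins and glycolipids were compared between regulatory T cells with and without Nrp1 (neuropilin-1, a surface co-receptor of semaphorins). The genes were chosen by symbol: those beginning with B3gnt, B3galt, B4galt, B4galnt, St3gal, St6gal, St8sia, Fut, Mgat, Galnt or Gcnt followed by a digit, and measured by at least 1 probe set annotated to that gene alone. This gave 76 genes with 160 probe sets, of 18193 genes on the array, and the rule itself uses no measured value. RNA came from spleen cells of Balb/c Foxp3 GFP mice, in which green fluorescence reports Foxp3, the lineage factor of regulatory T cells. The cells were sorted as CD4+ Foxp3+ Nrp1- (2 arrays) or CD4+ Foxp3+ Nrp1+ (2 arrays), each group with a replicate 1 and a replicate 2, and every sorted cell thus carried the reporter. The mice were 4 to 6 weeks old, except that the array titled Nrp1-negative replicate 1 lists 4 to 8 weeks. No label says which arrays came from separate mice, although Xist, given below, sets 1 array apart. The p-values measure only the spread between these arrays, which may in part be technical.

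Values are array intensities on a linear scale, brought to 1 trimmed mean and then quantile normalised, and a difference is Nrp1-positive minus Nrp1-negative in log2(intensity + 18.3). Each gene was represented by its brightest probe set. The source name and cell type of Nrp1-negative replicate 1 read as Nrp1-positive, against its title. Its Nrp1 intensity was 339, beside 1223 on Nrp1-negative replicate 2 and 9077 and 8039.6 on Nrp1-positive replicates 1 and 2. The arrays of replicate 1 had been deposited at a trimmed mean 3.33 times that of replicate 2, a difference that the scaling here removed. The rule that chose the genes also set the comparison of groups within each replicate number. The intensity of Xist, which female cells transcribe, was 79.4 on Nrp1-positive replicate 1 and between 4100.3 and 14682 on the other arrays. Its log2 difference was −5.40 within replicate 1 and 0.08 within replicate 2. Limma with the replicate number as a block called it lower (adjusted p = 0.0392). The arrays of replicate 1 thus differed in their share of female cells, and also in listed age. Within that number, Nrp1 status cannot be told apart from the mice used. The 5 T cell markers measured, including Cd3e and Cd4, were all above the filter on dim genes, and 0 of them passed the test. The Foxp3 probe set was below that filter, between 2.11 and 39.1, although the cells had been sorted on a Foxp3 reporter. Of the other 5 regulatory T cell markers, Ikzf2 and Tnfrsf18 were called higher in Nrp1-positive cells, and Il2ra and Ctla4 did not pass. Among marker lists for other cells, the 8 myeloid and dendritic cell markers summed to 7573 and 9139 on the arrays of replicate 1 and to 36508 and 34302 on those of replicate 2, Nrp1-negative first.

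Surface glycans are built largely in the Golgi by enzymes that mostly add 1 kind of sugar in 1 linkage, and the enzymes present help decide which chains a cell displays. N-glycans are branched by Mgat enzymes, O-glycans are begun by Galnt enzymes and branched by Gcnt enzymes, and glycolipids grow from glucosylceramide. Galactose, N-acetylglucosamine, fucose and sialic acid then extend or cap the chains. On T cells such chains are known to carry selectin ligands, to bind galectins and Siglecs, and to set how surface receptors cluster.

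Most of the tested genes did not differ beyond the error of the test, and the exceptions were a pair of glycolipid enzymes that moved in opposite directions. B3gnt5 was 2.20-fold higher and St8sia1 1.69-fold lower in Nrp1-positive cells. B3gnt5 makes lactotriaosylceramide, the first step of the lacto and neolacto series of glycolipids. St8sia1, the GD3 synthase, adds a further sialic acid to the ganglioside GM3. Ugcg, the glucosylceramide synthase that begins both routes and was not among the 76 genes, was 1.62-fold lower. Of the 76 genes, 38 passed the filter on dim genes (intensity of about 67.9) and were tested, 1 was higher, 1 was lower and 36 did not pass. Over all 10200 genes tested with the replicate number as a block, at an adjusted p below 0.05, limma called 1.05% higher and 0.608% lower. The 2 called members are 5.26% of the 38, against 1.66% of all genes in either direction. Without the block, or with a variance prior that did not follow the mean level, limma called 0 members and 0 of all genes.

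The annotated promoters of both called genes are shown because these are the members that passed the test with the block. They come from RefSeq (GRCm38.p6), 250 bases before to 50 after the annotated start, 5′ to 3′ on the gene's strand, with matches to the searched motifs in capitals. That of B3gnt5 lies at chr16:19759984-19760283 on the plus strand and that of St8sia1 at chr6:142964403-142964702 on the minus strand.
B3gnt5: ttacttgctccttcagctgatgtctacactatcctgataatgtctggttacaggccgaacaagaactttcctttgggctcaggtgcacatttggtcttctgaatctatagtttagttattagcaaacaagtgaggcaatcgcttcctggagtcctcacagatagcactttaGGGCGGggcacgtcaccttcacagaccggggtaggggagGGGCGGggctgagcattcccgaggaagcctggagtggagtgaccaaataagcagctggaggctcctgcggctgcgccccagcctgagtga
St8sia1: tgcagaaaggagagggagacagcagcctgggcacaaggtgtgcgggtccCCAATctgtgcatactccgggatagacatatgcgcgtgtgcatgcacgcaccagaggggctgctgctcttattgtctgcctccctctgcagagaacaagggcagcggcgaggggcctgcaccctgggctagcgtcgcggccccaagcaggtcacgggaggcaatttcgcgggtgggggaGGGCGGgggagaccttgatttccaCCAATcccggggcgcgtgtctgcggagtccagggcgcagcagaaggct
Motifs were searched on both strands: the GC box GGGCGG, the CCAAT box CCAAT, the TATA box TATAAA, the forkhead motif TGTTTAC, the Ikaros core TGGGAA and the Runx core TGTGGT. The B3gnt5 promoter held 2 GC boxes, and that of St8sia1 held 1 GC box and 2 CCAAT boxes, with 0 overlapping matches. Among all 32851 promoters of this length, 35.7% held a GC box and 37.4% a CCAAT box, so these matches are common. The other 4 motifs, held by 13.6% (TATA box), 3.65% (forkhead), 25.6% (Ikaros core) and 16.8% (Runx core) of all promoters, had 0 matches in either window. The 2 windows had 9 and 19 CG pairs, B3gnt5 first, against a median of 7 over all promoters. Of the 76 genes, 56 matched a promoter by symbol.

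B3gnt5 had intensities of 297 and 287 on Nrp1-negative replicates 1 and 2 and 716 and 618 on Nrp1-positive replicates 1 and 2. Both Nrp1-positive arrays were high and the groups did not overlap. The group means were 292 ± 7.40 and 667 ± 69.5 (SD, n = 2), a log2 difference of 1.14 (standard error 0.18, adjusted p = 0.00139 in limma with the replicate block). It was 1.22 within replicate 1 and 1.06 within replicate 2, and the 2 replicate numbers differed by −0.13 (replicate 2 minus 1). The second probe set of B3gnt5 was below the filter, at 36.7 and 25.6 on the Nrp1-negative and 74.6 and 38.8 on the Nrp1-positive arrays, again without overlap.

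St8sia1 had intensities of 2397 and 2918 on Nrp1-negative replicates 1 and 2 and 1296 and 1878 on Nrp1-positive replicates 1 and 2. Both Nrp1-positive arrays were low and the groups did not overlap. The means were 2658 ± 369 and 1587 ± 411 (SD, n = 2), a log2 difference of −0.75 (standard error 0.12, adjusted p = 0.00152 in limma with the replicate block), being −0.88 within replicate 1 and −0.63 within replicate 2. All 3 St8sia1 probe sets were above the filter and did not overlap between groups, at −0.75, −0.51 and −0.42. Averaged over the 3, the difference was −0.56 and still passed (adjusted p = 0.0390, limma with the block).

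Both calls depended on how the error was estimated. Limma without the block called 0 of the 38 members and 0 of all genes, with 2 members (5.26%) and 1.39% of all genes at an unadjusted p below 0.05, and with an adjusted p of 1 for both genes. With the block and a variance prior that did not follow the mean level, limma also called 0 members (adjusted p = 0.418 for either gene). At an unadjusted p below 0.05 there were then 4 of the 38 members and 858 of all 10200 genes. With the block there was 1 residual degree of freedom per gene beside 17.7 from the prior, and an exact permutation of 2 against 2 arrays cannot go below p = 0.333, two-sided. Without Nrp1-negative replicate 1, whose labels conflict, the block leaves the replicate 2 values of 1.06 and −0.63 with no test. Counted as Nrp1-positive, that array left the same values and limma called 0 members. At an unadjusted p below 0.05 there were then 0 of the 38 members and 378 of all 10200 genes.

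The other enzymes of the glycolipid route are given beside them, and were put together after their values were seen. Ugcg had intensities of 2329 and 1728 on Nrp1-negative replicates 1 and 2 and 1280 and 1185 on Nrp1-positive replicates 1 and 2. The groups did not overlap, and the log2 difference was −0.70 (standard error 0.13, adjusted p = 0.00555 in limma with the block), with the 4 Ugcg probe sets between −0.67 and −0.83. It was −0.85 within replicate 1 and −0.54 within replicate 2, and did not pass with arrays only scaled to 1 trimmed mean (adjusted p = 0.0593). B4galt5, a lactosylceramide synthase, had 540 and 586 on the Nrp1-negative and 599 and 522 on the Nrp1-positive arrays, with overlapping groups. St3gal5, the GM3 synthase that makes the substrate of St8sia1, had 89.8 and 206 on the Nrp1-negative and 89.3 and 161 on the Nrp1-positive arrays. Its arrays fell by replicate number and not by group, and its difference of −0.16 had a 95% interval of −0.83 to 0.50. B4galnt1, the GM2 and GD2 synthase, had 4398 and 2958 on the Nrp1-negative and 5009 and 2877 on the Nrp1-positive arrays, also ordered by replicate number. Its difference was 0.07, with a 95% interval of −0.15 to 0.30. A second, dimmer B4galnt1 probe set had 48.4 and 81.8 on the Nrp1-negative and 92.1 and 91.1 on the Nrp1-positive arrays. It was higher by 0.43 without overlap, and averaged over both sets the difference was 0.25 (adjusted p = 0.637, limma with the block). B3galt4, the GM1 synthase, had 606 and 628 on the Nrp1-negative and 654 and 482 on the Nrp1-positive arrays, which lay on both sides of the Nrp1-negative ones. In bulk RNA of sorted cells, fewer cells with a transcript and less transcript per cell cannot be told apart.

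**Figure D1:**
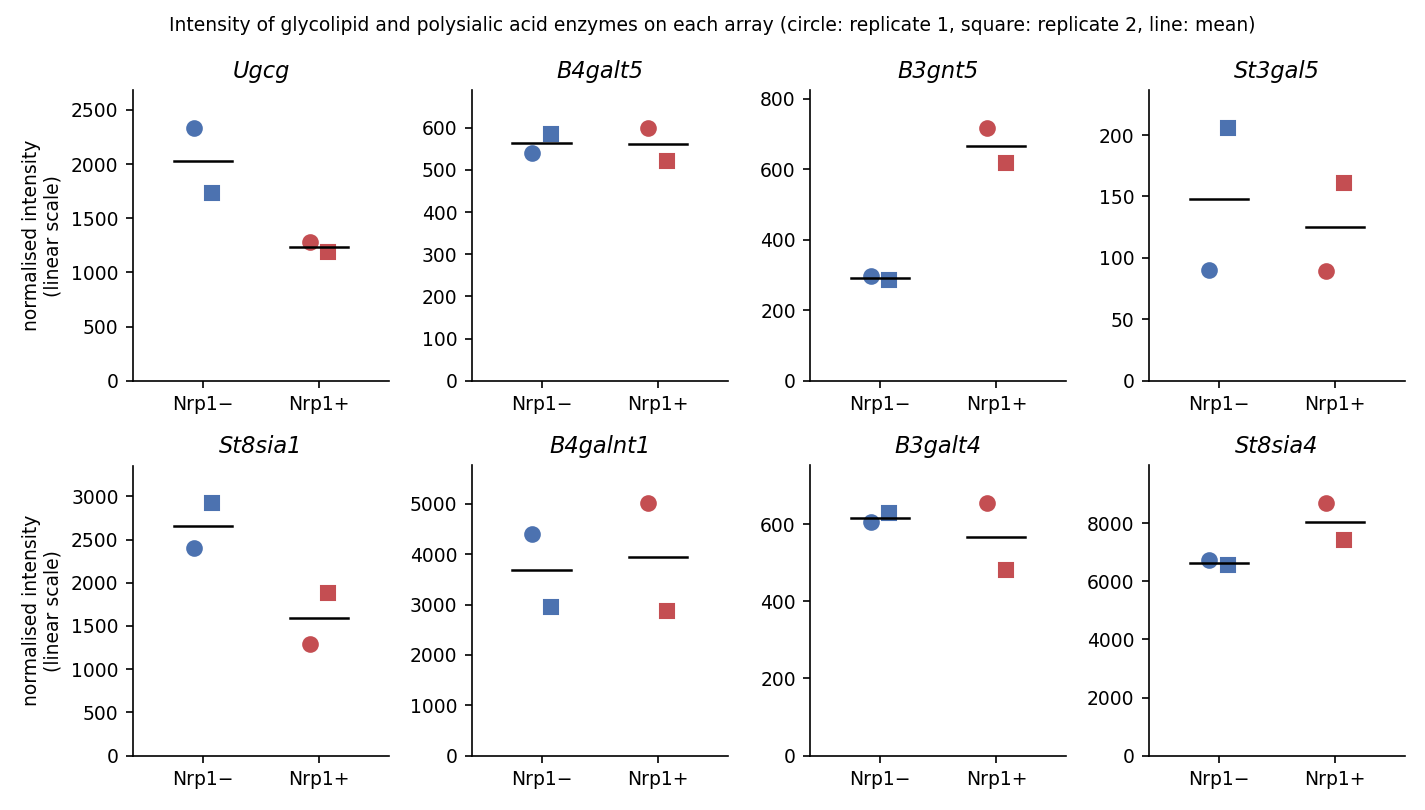
Normalised intensity (vertical axes, linear, from 0) of 8 enzymes on each of the 4 arrays, Nrp1-negative in blue and Nrp1-positive in red, with circles for replicate 1, squares for replicate 2 and lines for group means. B3gnt5 was high on both Nrp1-positive arrays (716 and 618) and Ugcg and St8sia1 were low there, while St3gal5 and B4galnt1 separated by replicate number.

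Among the other sialyltransferases, which cap chains with sialic acid, 0 passed. St8sia4, which builds polysialic acid, had intensities of 6712 and 6551 on the Nrp1-negative and 8677 and 7416 on the Nrp1-positive arrays. Both Nrp1-positive arrays were higher and the groups did not overlap, at a log2 difference of 0.27 (95% interval 0.07 to 0.47, adjusted p = 0.237 in limma with the block). St8sia6, which adds sialic acid to sialylated O-glycans, had 5887 and 3982 on the Nrp1-negative and 5946 and 4343 on the Nrp1-positive arrays, and both arrays of replicate 1 were higher. Its other probe sets above the filter were higher in both Nrp1-positive arrays without overlap, by 0.25 and 0.09. St6gal1, which caps N-glycans with alpha-2,6-linked sialic acid and so makes ligands of the B cell Siglec CD22, had 7451 and 7686 on the Nrp1-negative and 7322 and 8522 on the Nrp1-positive arrays. Its groups overlapped, and its difference of 0.06 had a 95% interval of −0.14 to 0.26. B cells are known to express St6gal1. The 6 B cell markers measured summed to 7894 and 9001 on the Nrp1-negative and 6897 and 8063 on the Nrp1-positive arrays, mostly Ighm, and 4 of the 6 (Cd79a, Ms4a1, Cr2 and Pax5) were below the filter. Their part in the St6gal1 level was not tested.

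All 6 St3gal genes were tested and 0 passed. St3gal2, which sialylates O-glycans and gangliosides, had 416 and 432 on the Nrp1-negative and 543 and 504 on the Nrp1-positive arrays. It was higher in both Nrp1-positive arrays, by 0.29 (95% interval −0.08 to 0.66). St3gal6, which caps N-acetyllactosamine chains, had 119.95 and 186 on the Nrp1-negative and 94.3 and 124 on the Nrp1-positive arrays, with overlapping groups. The brightest set gave −0.41 and the other 2 above the filter −0.82 and −0.26, so the sets shared a direction but not a size. St3gal1, St3gal3, St3gal4 and St3gal5 lay between −0.22 and 0.17. St8sia2, St8sia3, St8sia5 and St6gal2 were below the filter on dim genes.

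N-glycan branching genes showed no called difference among the 5 tested. Mgat5 makes the branch that carries the best galectin ligands and is known to restrain T cell receptor clustering. It had intensities of 723 and 977 on the Nrp1-negative and 924 and 1290.0 on the Nrp1-positive arrays, and within each replicate number the Nrp1-positive array was higher, by 0.35 and 0.39. Over both the difference was 0.37 (95% interval 0.08 to 0.66, adjusted p = 0.309 in limma with the block), and a second probe set gave 0.51. Mgat2, which opens the other antenna, had 1377 and 1807 on the Nrp1-negative and 1461 and 1579 on the Nrp1-positive arrays, with the groups overlapping. Mgat1, Mgat4a and Mgat4b differed by at most 0.10, and for Mgat4b this mean joined 0.73 within replicate 1 and −0.55 within replicate 2. Fut8, which adds the core fucose of N-glycans, had 616 and 1125 on the Nrp1-negative and 690.0 and 1024 on the Nrp1-positive arrays, so both arrays of replicate 2 were high. Mgat3, Mgat4c, Mgat4d, Mgat4e and Mgat5b were below the filter.

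Chain extension by N-acetyllactosamine rests on B3gnt and B4galt enzymes in turn. B3gnt2, the main enzyme of this extension, had intensities of 5089 and 4216 on the Nrp1-negative and 6276 and 4727 on the Nrp1-positive arrays. The Nrp1-positive array was higher within each replicate number, by 0.30 and 0.16, and the groups overlapped across them. The difference of 0.23 (95% interval 0.02 to 0.44) had an adjusted p of 0.422 in limma with the block, and a second probe set gave 0.53 without overlap. B4galt1, the main galactosyltransferase of N-glycans, had 2468 and 2216 on the Nrp1-negative and 2724 and 2152 on the Nrp1-positive arrays, which overlapped. B4galt3, B4galt5 and B4galt7 differed by −0.0085 to 0.21. B4galt7 and B3galt6, which add galactoses to the linker of proteoglycans, were each above 0 within replicate 1 (0.49 and 0.52) and below 0 within replicate 2 (−0.07 and −0.43). The other B4galt7 probe set above the filter ran the opposite way, at −0.59 and 0.33. B4galnt4 differed by −0.07. B3gnt3, B3gnt4, B3gnt7, B3gnt8, B3gnt9, B3galt1, B3galt2, B3galt5, B4galt2, B4galt4, B4galt6 and B4galnt2 were below the filter.

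O-glycan genes were the group with most members, 16 Galnt enzymes that attach the first sugar to serine or threonine, of which 8 were tested and 0 passed. Galnt1 had intensities of 2097 and 2224 on the Nrp1-negative and 2418 and 2650.5 on the Nrp1-positive arrays. It was higher in both Nrp1-positive arrays without overlap, by 0.20 and 0.25 within the replicate numbers (95% interval of the mean −0.01 to 0.47). A second Galnt1 probe set above the filter gave 0.06, with overlapping groups. Galnt2 had 1300 and 1469 on the Nrp1-negative and 947 and 1285 on the Nrp1-positive arrays. It was lower in both Nrp1-positive arrays without overlap, at a log2 difference of −0.32 (95% interval −0.60 to −0.04, adjusted p = 0.400 in limma with the block), while its other 2 probe sets gave −0.23 and −0.02 and overlapped. Galnt7 had 1654 and 1893 on the Nrp1-negative and 1591 and 1711 on the Nrp1-positive arrays, and Galnt12 had 1554 and 1899 against 1479 and 1767. Both were slightly lower in the Nrp1-positive array of each pair, at log2 differences of −0.14 to −0.05, with overlapping groups, but the other 2 Galnt7 probe sets above the filter gave 0.08 and −0.36. Galnt4, Galnt6, Galnt10 and Galnt11 lay between −0.07 and 0.05, and the 3 probe sets of Galnt6 spread from −0.30 to 0.44, while those of Galnt10 gave −0.05 and −0.65. Galnt3, Galnt5, Galnt9, Galnt13, Galnt14, Galnt15, Galnt16 and Galnt18 were below the filter.

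Branching of O-glycans and the fucose of selectin ligands lay near or under the filter on dim genes. Gcnt1, which makes the core for selectin ligands on T cells, had 33.1 and 141 on the Nrp1-negative and 76.6 and 141 on the Nrp1-positive arrays. Its difference of 0.44 came from replicate 1 (0.89 within it, 0.0021 within replicate 2) and had a 95% interval of −0.39 to 1.28. Gcnt2, which branches chains into the I antigen, had 76.2 and 486 on the Nrp1-negative and 99.4 and 409 on the Nrp1-positive arrays. It was 2.14 higher in replicate 2 than in replicate 1 and 0.04 higher in Nrp1-positive cells. Fut10 had 108 and 22.2 on the Nrp1-negative and 81.5 and 92.7 on the Nrp1-positive arrays, so that 1 Nrp1-negative array was low and the other was the highest of all. Its difference was −0.34 within replicate 1 and 1.45 within replicate 2, and Fut11 differed by 0.16 in each. Fut7, which makes the fucosylated cap bound by selectins, was below the filter at 40.1, 20.4, 51.4 and 85.8, Nrp1-negative arrays first and replicate 1 before replicate 2. Fut1, Fut2, Fut4, the pseudogene Fut4-ps1, Fut9, B3gnt6, Gcnt3 and Gcnt7 were also below it. Among the 38 untested members the highest intensity on any array was 155, for Galnt16 on Nrp1-positive replicate 1, where the other 3 arrays had between 16.3 and 29.6.

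**Figure D2:**
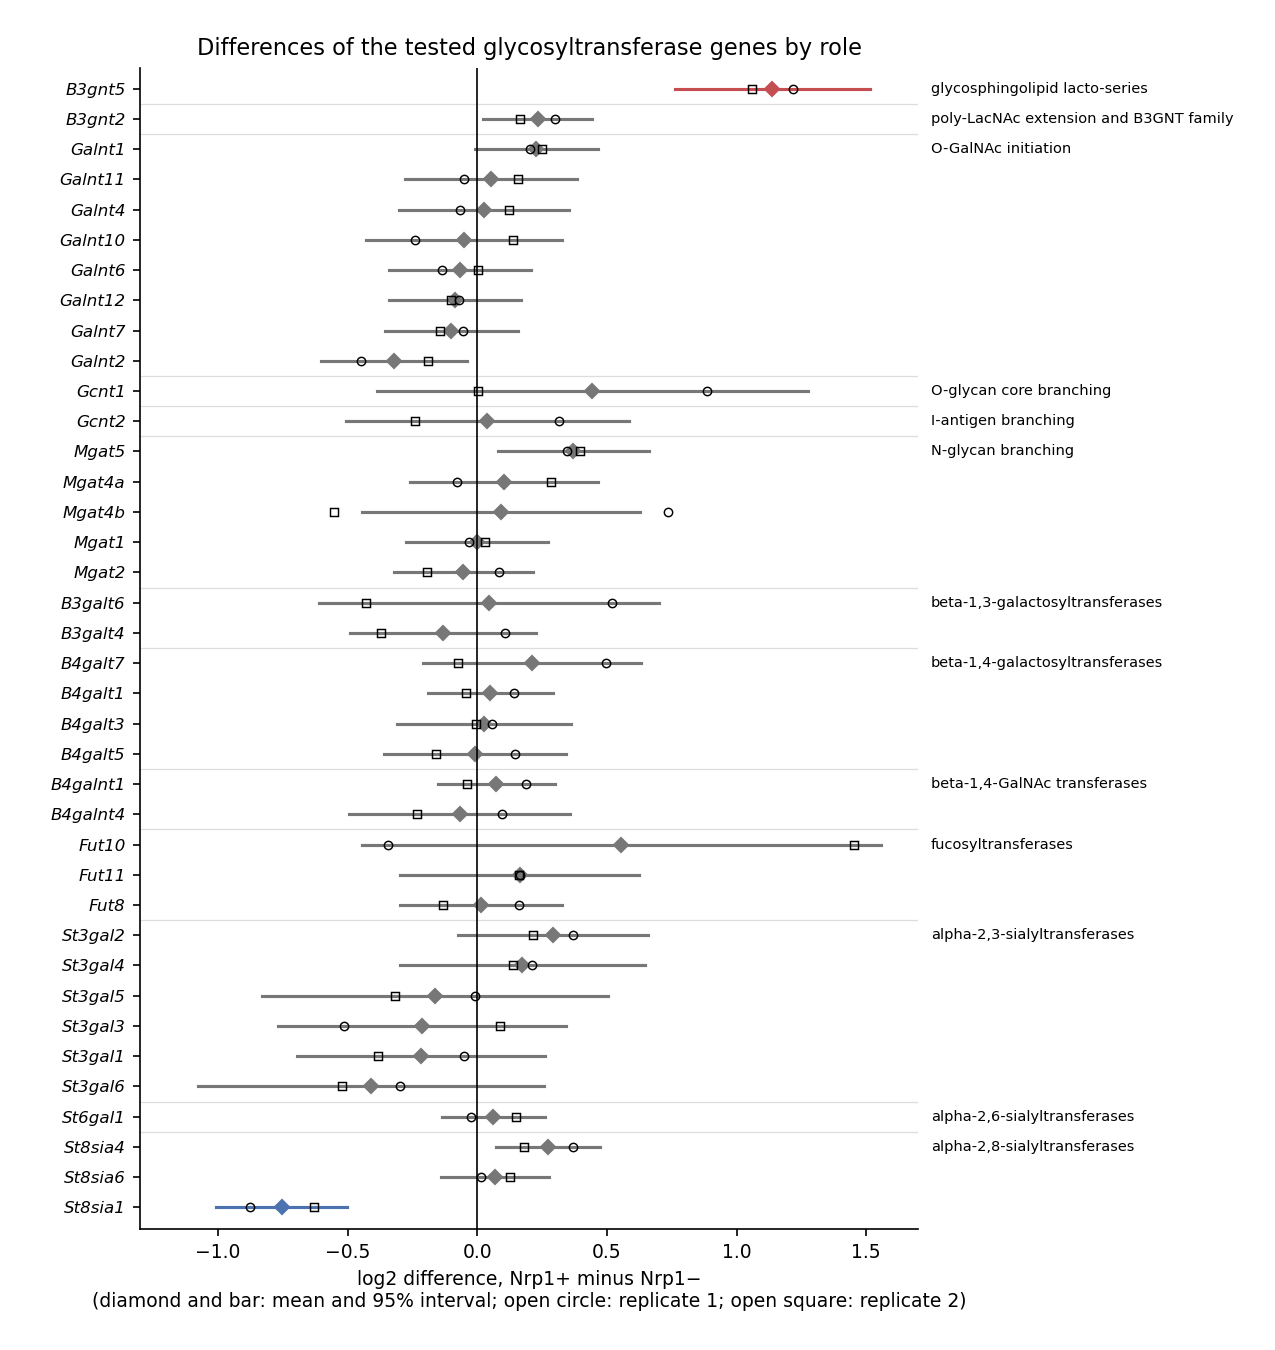
Log2 difference (horizontal axis, Nrp1-positive minus Nrp1-negative) of the 38 tested genes, grouped by role, with diamonds and bars for the mean and its 95% interval from limma with the replicate block, open circles for replicate 1 and open squares for replicate 2. B3gnt5 (red, called higher, 1.14) and St8sia1 (blue, called lower, −0.75) lie away from 0 in both replicates, and the 36 grey genes did not pass.

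Over the 38 tested members the median difference was 0.04, against −0.0023 over all 10200 genes, and the median size was 0.10 against 0.12. Members above 0 numbered 23 and those below 0 numbered 15. The groups did not overlap in 8 members (21.1%), against 21.0% of all genes. Of the members, 17 (44.7%) had 1 direction in both replicate numbers, against 54.0% of all genes. An unadjusted p below 0.05 was reached by 6 members (15.8%), against 9.64% of all genes, in limma with the block: the called pair with St8sia4, Mgat5, Galnt2 and B3gnt2. Of the 36 uncalled members, the 95% interval stayed within 1 log2 unit of 0 for 33 and within 0.5 for 21. Of 23 members with several probe sets above the filter, 16 had 1 sign in all of them.

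**Figure D3:**
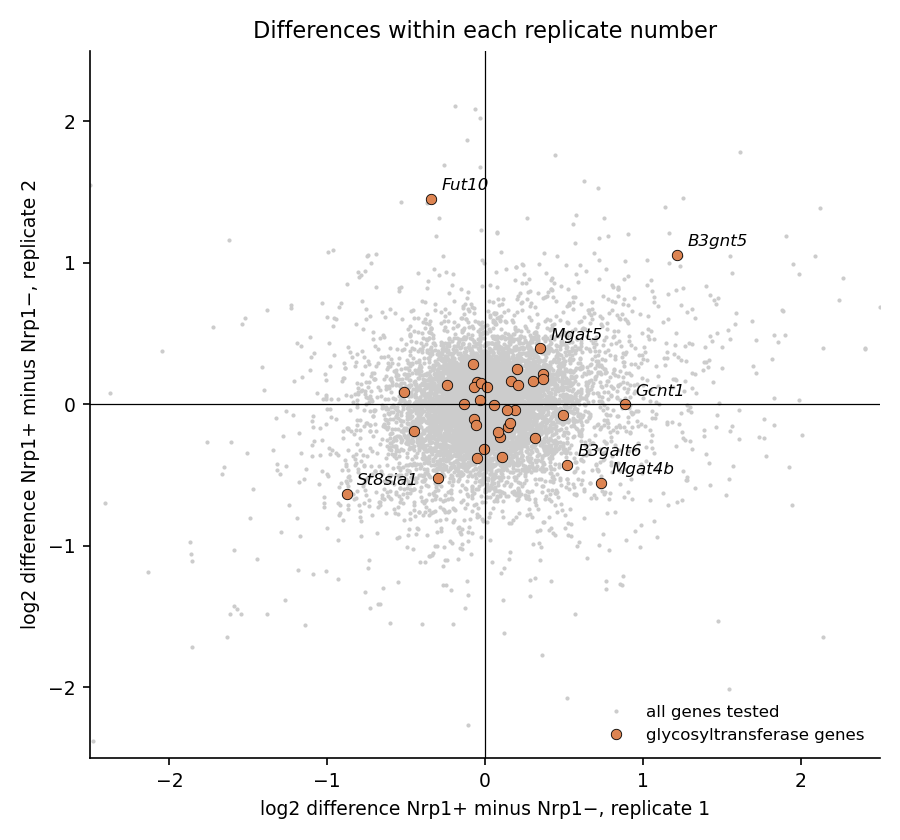
Log2 difference (Nrp1-positive minus Nrp1-negative) within replicate 1 (horizontal axis) and within replicate 2 (vertical axis) for the 38 tested members (orange) over all genes tested (grey, with 11 genes beyond the axes). B3gnt5 (1.22 and 1.06) and St8sia1 (−0.88 and −0.63) lie along the diagonal, while Fut10 and Mgat4b have opposite signs in the replicates.

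The replicate number moved most members more than Nrp1 status did. Its shift (replicate 2 minus replicate 1, mean of both groups) was larger in size than the group difference in 29 of 38 members (76.3%), against 71.6% of all genes. The median size of the shift was 0.30 in the members and 0.27 over all genes. The shift was above 0, higher in replicate 2, in 15 of the 38 members (39.5%), against 50.8% of all genes. It reached 2.14 for Gcnt2, 1.19 for Gcnt1, 0.89 for St3gal5 and 0.70 for Fut8. In the other direction it was −0.84 for St3gal4, −0.75 for Fut10, −0.68 for B4galnt1 and Mgat4b and −0.51 for St8sia6. The sum of the 8 myeloid and dendritic cell markers given above, made up mostly of S100a8 and Lyz2, was higher in replicate 2. The 6 of them above the filter shifted by 1.49 to 2.74, while the dim Flt3 and Xcr1 were at 0.30 and −0.68, and the part of these cells in the members' shifts was not tested. Within replicate 1 that marker sum was 7573 in Nrp1-negative and 9139 in Nrp1-positive cells, and within replicate 2 it was 36508 and 34302. B3gnt5 shifted by −0.13 and St8sia1 by 0.41 between replicate numbers.

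**Figure D4:**
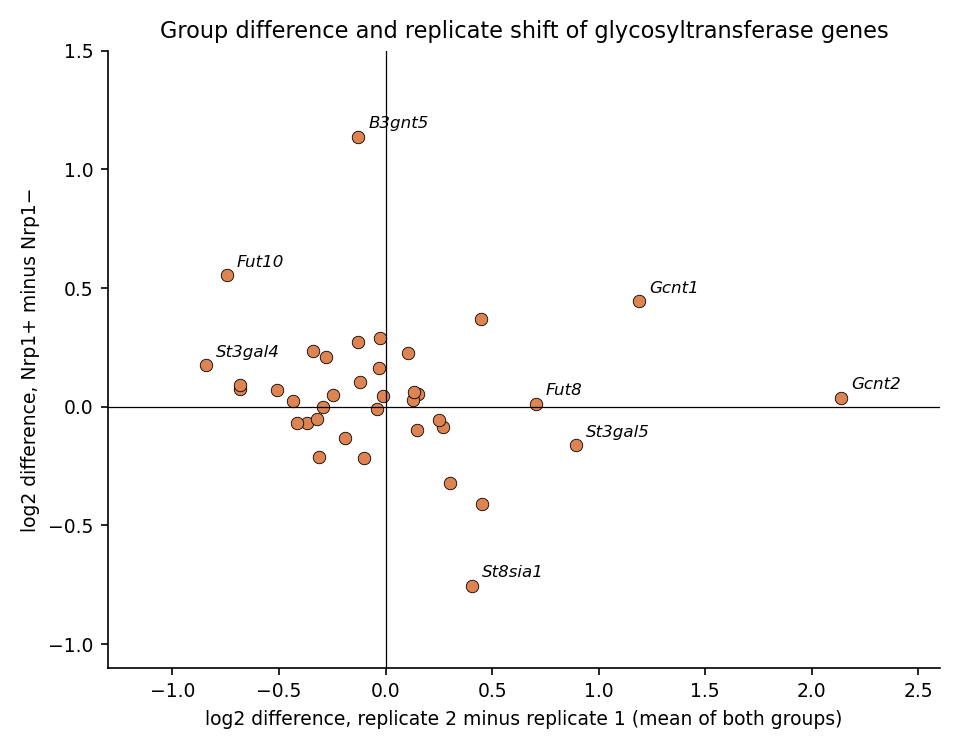
Group difference (vertical axis, log2, Nrp1-positive minus Nrp1-negative) against the replicate shift (horizontal axis, log2, replicate 2 minus replicate 1) for the 38 tested members, 1 point a gene. B3gnt5 and St8sia1 stand out on the vertical axis and Gcnt2 (2.14) and Gcnt1 (1.19) on the horizontal axis.

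Genes that feed, build, trim, carry or bind these chains were taken from 13 lists with 109 genes. Of these 84 were tested, 1 was higher (Slc35d1), 1 was lower (Ugcg) and 82 did not pass, with a median difference of 0.03. The 2 called genes are 2.38% of the 84, against 1.66% of all genes tested. Slc35d1, a transporter of nucleotide sugars that works in the endoplasmic reticulum although it stands on the list of Golgi transporters, had intensities of 2486 and 1620 on the Nrp1-negative and 2932 and 2951 on the Nrp1-positive arrays. It was higher in both Nrp1-positive arrays, by 0.55 (standard error 0.13, adjusted p = 0.0411 in limma with the block), but by 0.24 within replicate 1 and 0.86 within replicate 2, and did not pass with arrays only scaled (adjusted p = 0.227). Without the block limma called neither Slc35d1 nor Ugcg (adjusted p = 1). None of 14 genes of sugar nucleotide synthesis passed (median 0.03), nor did 8 mannosidases and glucosidases that trim N-glycans (median −0.0053). Also without a call were 7 genes listed for the O-glycans of Notch (median 0.01), although Pofut2 among them acts on other proteins. The same held for 9 sulfotransferases (median −0.12), 11 proteoglycan glycosyltransferases (median 0.09) and 4 sialidases and fucosidases (median 0.12). C1galt1 and its chaperone gene C1galt1c1, which make the O-glycan core, did not pass either. The brightest genes of those lists differed by −0.12 (Tpst2) to 0.14 (Fuca1), with C1galt1c1 at −0.10, Man1a at −0.09, Pofut2 at −0.08, Extl3 at −0.04 and Cmas at −0.02. Of the 4 tested glycolipid genes outside the members, Ugcg was lower, and 3 genes of lysosomal breakdown did not pass (Hexa at −0.15, Glb1 at −0.04 and Asah1 at 0.17).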

How the data were processed

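Intensities of 45101 probe sets on 4 Affymetrix mouse arrays were deposited by the authors, on a linear scale, and the submitters' processing notes name MAS5. No version or setting of it was given to work from. From the values, each array had a 2% trimmed mean of 500.003 (replicate 1) or 150.001 (replicate 2). Here all arrays were scaled to 1 trimmed mean and quantile normalised, and 18.3 (0.25 of the array median) was added before log2, so a fold change of a dim gene is understated.

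Gene names came from the platform annotation: 34945 probe sets had 1 gene, 932 several and 9160 were unnamed here, and the symbols of all 76 members matched RefSeq. Probe sets whose mean log2 level reached percentile 50 were kept, and a gene took its brightest set. This left 10200 genes. Intensity was used to pick probe sets and named genes and not to compare expression between genes.

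The test was limma 3.58.1 under R 4.3.3 (empirical Bayes with mean-variance trend, two-sided, Benjamini-Hochberg over all genes, threshold 0.05). It had the replicate number as a block, because the rule that chose the genes compares within each number. The arrays of a number also share a deposited scaling target, although the scaling here removed the difference between the targets. That shared target does not show that the arrays of a number came from the same mice. Deviations from group means correlated at 0.725 within a number over genes, a value that 2 arrays a group make the same for both numbers. The fit was also run on simulated data, which took their spread and replicate shifts from the fit itself. That run therefore cannot check the variance trend or the block on which the calls depend. Groups follow the titles. The number of arrays limits the precision. Members named with values on every array are those past the threshold, the 10 brightest tested, the 10 with the largest differences and the brightest of each role, and others were named after their values were seen. The members and lists were chosen with earlier results of these data known. Alternatives covered the block, normalisation, pseudocount, filter, probe set choice, trend, labels and arrays left out. Figures used matplotlib 3.10.9.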

Additional observations from a re-analysis of the deposited data

How the results depend on the processing

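The 2 member calls (1 higher, B3gnt5, and 1 lower, St8sia1) held with arrays only scaled to 1 trimmed mean, a pseudocount of 1, a filter at percentile 25 or none, and averaged probe sets. With no filter all 76 members were tested and limma called the same 2 genes, beside 196 of all 18193 genes. At an unadjusted p below 0.05 there were then 9 of the 76 members and 1517 of all 18193 genes. Without the replicate block, without the mean-variance trend, or with Nrp1-negative replicate 1 moved to the Nrp1-positive group, limma called 0 members, 0 pathway list genes and 0 of all genes in either direction (142, 858 and 378 genes at an unadjusted p below 0.05, in that order). Without the block and with each array left out in turn, 0 members, 0 pathway list genes, 0 to 1 higher genes and 0 lower genes were called; these fits mix replicate and group. With the block, leaving out an array leaves the difference within the other replicate number, with no test. B3gnt5 ranged from 1.03 to 1.24 and St8sia1 from −1.02 to −0.49 over arrays left out.

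Calls over all genes were 29 higher and 17 lower with arrays only scaled, 191 and 113 with the filter at percentile 25, and 211 and 114 with the mean of probe sets, against 107 and 62. Pathway list genes called were 2 as reported, 0 with arrays only scaled, 1 with a pseudocount of 1 (Ugcg), 4 with either weaker filter (with Lamp2 and Lgals3) and 5 with the mean of probe sets (with Chsy1, Lgals3 and Selp). The cause of these changes was not tested. The named genes that were not called took the other sign in 39 of 303 values under alternatives, from 11 genes. Gcnt1 and Fut10 lay near the filter, and the part of background in their values was not tested.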

Other observations

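Genes of proteins that carry or read surface glycans showed no called difference. Of 9 tested carriers of glycans on T cells 0 passed (median 0.03). Selplg, which encodes the P-selectin ligand PSGL-1, had intensities of 10491 and 9554 on the Nrp1-negative and 10824 and 9696 on the Nrp1-positive arrays, which overlapped. Ptprc, which encodes CD45, differed by −0.01. Lamp2, Lgals3, Lgals7 and Selp were chosen after their values were seen. Lamp2 had 1530 and 2116 on the Nrp1-negative and 1840 and 3556 on the Nrp1-positive arrays, a difference of 0.50 that just missed the threshold (adjusted p = 0.0533 in limma with the replicate block).

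Of 7 tested genes on the galectin list, 6 galectins, which are lectins of galactose-bearing chains, and the binding protein gene Lgals3bp, 0 passed (median 0.01). Lgals3, the galectin-3 gene, had 221 and 1947 on the Nrp1-negative and 554 and 2081 on the Nrp1-positive arrays. Its difference was 1.26 within replicate 1 and 0.10 within replicate 2, and its replicate shift was 2.46. Lgals1 had 10798 and 34920 on the Nrp1-negative and 12508 and 32309 on the Nrp1-positive arrays, again ordered by replicate number. Lgals7 went the other way, with 171 and 169 on the Nrp1-negative and 85.8 and 103 on the Nrp1-positive arrays, without overlap. Its difference was −0.75 (95% interval −1.42 to −0.08, adjusted p = 0.419 in limma with the replicate block). Selp, the P-selectin gene, had 74.7 and 70.6 on the Nrp1-negative and 125 and 247 on the Nrp1-positive arrays, a difference of 1.10 (95% interval 0.36 to 1.84, adjusted p = 0.169 in limma with the replicate block). It was higher in both Nrp1-positive arrays. Cd22, the tested Siglec gene, differed by 0.16 and did not pass.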
